A study of Mus musculus with 2 samples.

Results

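The miR-302 and miR-367 cluster is a group of 5 microRNA genes, Mir302b, Mir302c, Mir302a, Mir302d and Mir367, out of 2202 microRNA genes counted. The genes were chosen by symbol, and because microRNAs known from pluripotent cells had received reads in mature brain tissue. Their read counts are therefore what selected them, and their levels are given here as a description without a test. The samples were 2 microRNA-seq libraries of hippocampal tissue from adult male mice with the strain label 5xFAD/CAST, aged 8 to 10 months. 5xFAD is a transgenic line used to model the amyloid deposition of Alzheimer disease. CAST denotes an inbred strain derived from wild mice. The libraries are biological replicates 1 and 2 of a single group, with no control genotype, other strain or other age. Each library has a tissue record of its own and both share a donor record, so whether separate animals were sampled is not given, and the spread between the libraries may be technical.

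MicroRNAs are small RNAs cut from hairpins in a longer primary transcript. Bases 2 to 8 of the mature strand, the seed, do most of the pairing with target messenger RNAs. The miR-302 and miR-367 hairpins are known to be cut from a common primary transcript, which is most active in embryonic stem cells and the early embryo and is driven by pluripotency factors such as Oct4 and Sox2. miR-302 promotes proliferation and the undifferentiated state by repressing cell cycle inhibitors among other targets. It is generally regarded as silenced on differentiation, while let-7 microRNAs rise.

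The cluster lies on mm10 chromosome 3, from 127545228 to 127545807, a span of 580 bases on the plus strand. All 5 hairpins lie within an intron of Larp7, a gene transcribed from the minus strand that encodes a binding protein of 7SK RNA. The intron, between exons 8 and 9 of the principal Larp7 transcript, runs from 127544279 to 127545825, and no annotated exon of Larp7 touches the cluster. Larp7 was the only annotated gene other than microRNA genes at this place. The gaps between neighbouring hairpins were 61, 65, 59 and 43 bases, in the order Mir302b, Mir302c, Mir302a, Mir302d, Mir367.

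**Figure D1:**
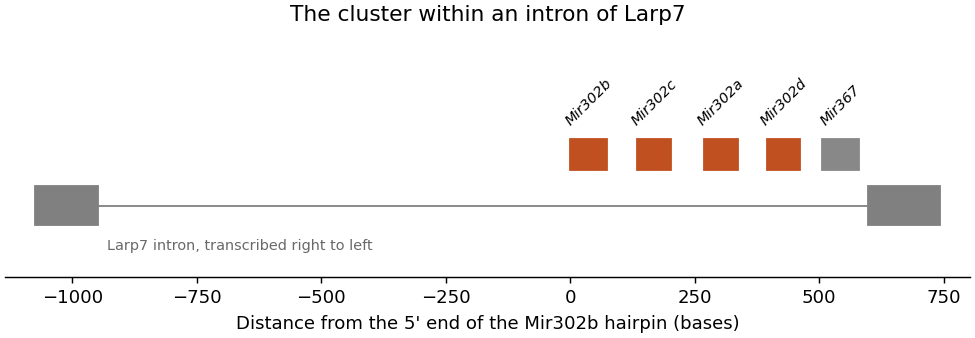
Position of the hairpins (upper boxes, plus strand) within the Larp7 intron (line) and its flanking exons (lower boxes), by distance in bases from the 5′ end of the Mir302b hairpin. The 4 orange hairpins received reads and the grey one, Mir367, received none.

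The hairpin sequences show what the reads were counted over, since a read anywhere in a hairpin counts for its gene and the 5′ and 3′ arms were not counted apart. They are given 5′ to 3′ from RefSeq (GRCm38.p6, the mm10 assembly, plus strand). Capitals mark AAGUGCU in the miR-302 hairpins and AUUGCAC in the miR-367 hairpin, which are the seeds of miR-302b-3p and miR-302d-3p and of miR-367-3p.
Mir302b, chr3:127545228-127545301: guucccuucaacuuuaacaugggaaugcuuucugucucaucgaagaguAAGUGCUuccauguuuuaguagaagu
Mir302c, chr3:127545363-127545430: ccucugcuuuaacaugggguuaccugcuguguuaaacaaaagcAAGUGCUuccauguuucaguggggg
Mir302a, chr3:127545496-127545564: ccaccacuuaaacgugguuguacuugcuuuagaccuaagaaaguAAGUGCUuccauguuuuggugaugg
Mir302d, chr3:127545624-127545689: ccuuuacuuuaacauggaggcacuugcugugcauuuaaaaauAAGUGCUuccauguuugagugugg
Mir367, chr3:127545733-127545807: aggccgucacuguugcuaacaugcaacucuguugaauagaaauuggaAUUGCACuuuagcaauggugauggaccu

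The letters AAGUGCU, searched on the hairpin's own strand, occurred in all 4 miR-302 hairpins and in 61 of the 2202 counted hairpins (2.77%). The letters AUUGCAC occurred in the miR-367 hairpin and in 11 of 2202 (0.500%). A match of these letters describes the sequence and does not show that a hairpin yields a microRNA with that seed.

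The mature 3′ arms show how alike the miR-302 microRNAs are and how miR-367 differs, with bases 2 to 8 in capitals.
miR-302b-3p: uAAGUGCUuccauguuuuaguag
miR-302d-3p: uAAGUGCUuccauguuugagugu
miR-302c-3p: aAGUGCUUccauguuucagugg
miR-367-3p: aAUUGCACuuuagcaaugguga
RefSeq starts miR-302c-3p 1 base further into the shared stretch, so its bases 2 to 8 read AGUGCUU where miR-302b-3p and miR-302d-3p have AAGUGCU. Counted from 1 at the 5′ end of miR-302b-3p, the substitutions U18C and A22G lead to miR-302c-3p, and U18G, A22G and G23U lead to miR-302d-3p. These substitutions thus lie toward the 3′ end and outside the seed. miR-302b-3p and miR-367-3p matched at 9 of 22 aligned bases. The remaining 3′ arm of the family is miR-302a-3p.

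The 5′ arms of the miR-302 hairpins are less alike than the 3′ arms. CUUUAAC is the seed of 3 of them, and miR-302a-5p has a seed of its own.
miR-302b-5p: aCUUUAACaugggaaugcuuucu
miR-302c-5p: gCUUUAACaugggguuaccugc
miR-302d-5p: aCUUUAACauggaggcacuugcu
miR-302a-5p: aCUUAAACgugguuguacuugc
Identity among these arms lay between 68.2% and 77.3%, against 87.0% to 90.9% among the 3′ arms shown. The likeness decides how a read can be placed. A read of miR-302b-3p must reach 19 bases from its 5′ end before it differs from the Mir302a hairpin, and one of miR-302d-3p must reach 18 bases before it differs from Mir302a and Mir302b. For miR-367-3p 9 bases are enough. At full length each of the 9 mature sequences examined, which do not include miR-302a-3p, occurred in 1 counted hairpin only. The longest run that Mir302a and Mir302b share is 20 bases, so their counts are less certain than those of Mir302d and Mir302c, whose longest shared runs are 17 and 16 bases. Outside the cluster no counted hairpin shares more than 13 bases with a member.

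Depth was 2820468 reads assigned to microRNA genes in replicate 2 and 3421977 in replicate 1. Reads that matched several places, which carry no gene name, made up 38.2% of all reads in replicate 2 and 41.6% in replicate 1, and unmapped reads made up 22.6% and 16.6%. Among neuronal microRNAs, those of the neuron-enriched list summed to 35921 CPM (reads scaled to 1000000 assigned reads) in replicate 2 and 34067 CPM in replicate 1, with 12 of 15 genes detected at 10 reads or more in both libraries. The brain microRNA miR-124 was nearly absent from the assigned reads, with 5 reads in each library for Mir124a-1 and 0 for its other copies, all of which share sequence with each other. Markers of other tissues were low. A list of 12 liver, muscle and red blood cell genes summed to 101 CPM in replicate 2 and 95.9 CPM in replicate 1, with 6 detected and Mir1a-1, Mir133a-2 and Mir133b, which share sequence with copies, at 0.

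Of the 5 members, 4 were detected, all of them miR-302 genes, against 17.7% of all microRNA genes. Since reads in this tissue are why the members were picked, nothing is read from that share. In bulk tissue, reads from a few cells with much of a microRNA and from many cells with little of it cannot be told apart, nor can fewer cells of a type and less RNA per cell. Mir302a (ENSMUSG00000065552.1) had 582 reads in replicate 2 and 292 in replicate 1. Mir302b (ENSMUSG00000076252.1) had 509 reads in replicate 2 and 281 in replicate 1. Mir302d (ENSMUSG00000065447.1) had 330 reads in replicate 2 and 162 in replicate 1. For each of these genes replicate 2 was the higher library, although it was the shallower one. Mir302c (ENSMUSG00000065482.1) had 114 reads in replicate 2 and 49 in replicate 1, the lowest counts among the miR-302 genes in either library. Mir367 (ENSMUSG00000065413.2) had 0 reads in both libraries. No member had a read on the opposite strand, and the counts made without regard to strand were the same for each of them.

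CPM is scaled to the library and not to length, and each read stands for a small RNA fragment from hairpins of 66 to 75 bases. On this scale Mir302a averaged 146 ± 85.6 CPM, Mir302b 131 ± 69.5, Mir302d 82.2 ± 49.3 and Mir302c 27.4 ± 18.5 CPM (SD, n = 2). By mean CPM these genes ranked 175, 183, 206 and 268 of 389 detected genes, whose median level was 105 CPM. Within replicate 2, Mir302a, Mir302b and Mir302d lay above that library's median of 107 CPM over detected genes and Mir302c below it. Within replicate 1, all 4 lay below the median of 86.2 CPM. The exact Clopper-Pearson 95% interval for Mir302a was 190 to 224 CPM in replicate 2 and 75.8 to 95.7 CPM in replicate 1. For Mir302c it was 33.3 to 48.6 CPM in replicate 2 and 10.6 to 18.9 CPM in replicate 1. For Mir367, a count of 0 allows up to 1.31 CPM in replicate 2 and 1.08 CPM in replicate 1 by the same exact interval. Taking 3 reads as the limit, it allows up to 1.06 CPM in replicate 2 and 0.877 CPM in replicate 1. The reads carry no molecular identifiers, so intervals and limits cover counting error only.

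**Figure D2:**
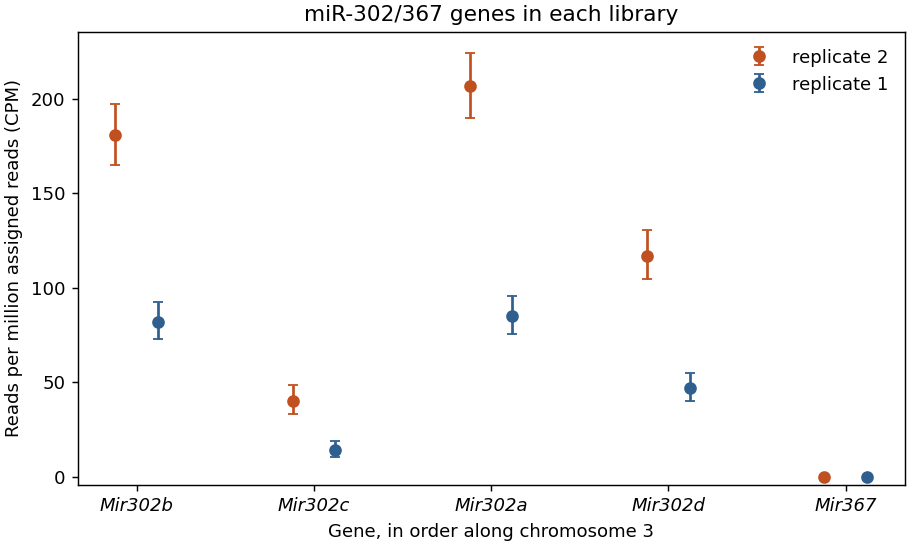
Level of each member in CPM (vertical axis) in the order of the genes along the chromosome (horizontal axis), with points for replicate 2 (orange, left) and replicate 1 (blue, right) and bars for exact 95% intervals. Each miR-302 gene is higher in replicate 2, Mir302c is the lowest of them in both libraries and Mir367 is at 0.

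Together the 5 genes took 1535 reads in replicate 2, or 1 in 1837 assigned reads, and 784 reads in replicate 1, or 1 in 4365. Their sum was 544 CPM in replicate 2 and 229 CPM in replicate 1, a mean of 387 ± 223 CPM (SD, n = 2). The exact 95% interval of the sum was 517 to 572 CPM in replicate 2 and 213 to 246 CPM in replicate 1, so the libraries lay further apart than counting error.

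Unlike the level of the sum, the make-up of the cluster stayed within counting error between the libraries. Mir302a held 37.9% of the cluster's reads in replicate 2 (exact 95% limits of 35.5 and 40.4) and 37.2% in replicate 1 (limits of 33.9 and 40.7). Mir302b held 33.2% in replicate 2 (30.8 to 35.6) and 35.8% in replicate 1 (32.5 to 39.3). Mir302d held 21.5% in replicate 2 (19.5 to 23.6) and 20.7% in replicate 1 (17.9 to 23.7). Mir302c held 7.43% in replicate 2 (6.16 to 8.85) and 6.25% in replicate 1 (4.66 to 8.18). For each of the 4 genes the intervals of the libraries overlap, and Mir302a and Mir302b together made up most of the cluster's reads in both. The 0 reads of Mir367 allow a share of up to 0.240% of the cluster's reads in replicate 2 and 0.469% in replicate 1 by the exact 95% limits.

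Mir302a, Mir302b, Mir302d and Mir302c had the same order in both libraries. The first step of that order is the least certain. Reads of Mir302a over those of Mir302b gave a ratio of 1.14 in replicate 2 (exact 95% limits of 1.01 and 1.29) and 1.04 in replicate 1 (limits of 0.879 and 1.23, which include equality), and these are also the genes that share 20 bases. Mir302b over Mir302d gave 1.54 in replicate 2 (1.34 to 1.78) and 1.73 in replicate 1 (1.42 to 2.12). Mir302d over Mir302c gave 2.89 in replicate 2 (2.33 to 3.61) and 3.31 in replicate 1 (2.39 to 4.65). The order does not follow position along the transcript, since Mir302c lies between the most abundant genes. Mir367, the last hairpin, begins 43 bases after Mir302d, and the longest run it shares with another counted hairpin is 11 bases, found in Mir32 among others.

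All 4 miR-302 genes were higher in replicate 2 than in replicate 1 beyond counting error, on counts scaled by TMM, which corrects library sizes for differences in composition. The fold of replicate 2 over replicate 1 was 2.26 for Mir302a (log2 ratio 1.18, exact 95% interval 0.97 to 1.38). It was 2.05 for Mir302b (1.04, 0.83 to 1.25), 2.31 for Mir302d (1.21, 0.93 to 1.49) and 2.64 for Mir302c (1.40, 0.90 to 1.91). The 4 intervals overlap one another, so the genes were not told apart in how far they moved. With Benjamini-Hochberg adjustment over 389 genes, the exact binomial test gave an adjusted p of 2.90e-31 for Mir302a, 1.30e-22 for Mir302b, 5.86e-19 for Mir302d and 7.81e-09 for Mir302c. This test compares a pair of libraries and not conditions, and it called 67.6% of detected genes, 33.9% as higher and 33.7% as lower in replicate 2. The median log2 ratio was 1.19 over the 4 detected members and 0.055 over all detected genes.

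With the spread between the libraries as the error, none of the 4 genes passed, in a test that few genes could pass. The error is estimated from the same difference that is tested, so this result does not show that the libraries agree. The edgeR exact test, which takes the error from these same libraries (biological coefficient of variation 0.41), called 0 of the 4 genes, with unadjusted p between 0.13 and 0.24 and an adjusted p of 1 for each. It called 0.514% of detected genes, and 5.91% had an unadjusted p under 0.05. A log2 ratio as high as that of Mir302b or higher was found in 41 of the 389 detected genes (10.5%). The hairpins of the detected members have a GC content of 39.2% to 47.1%, against a median of 52.1% over detected genes, and the 96 other detected genes within that range had a median log2 ratio of -0.18 with an SD of 0.89 over genes. The part of GC content in the members' ratios was not tested.

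**Figure D3:**
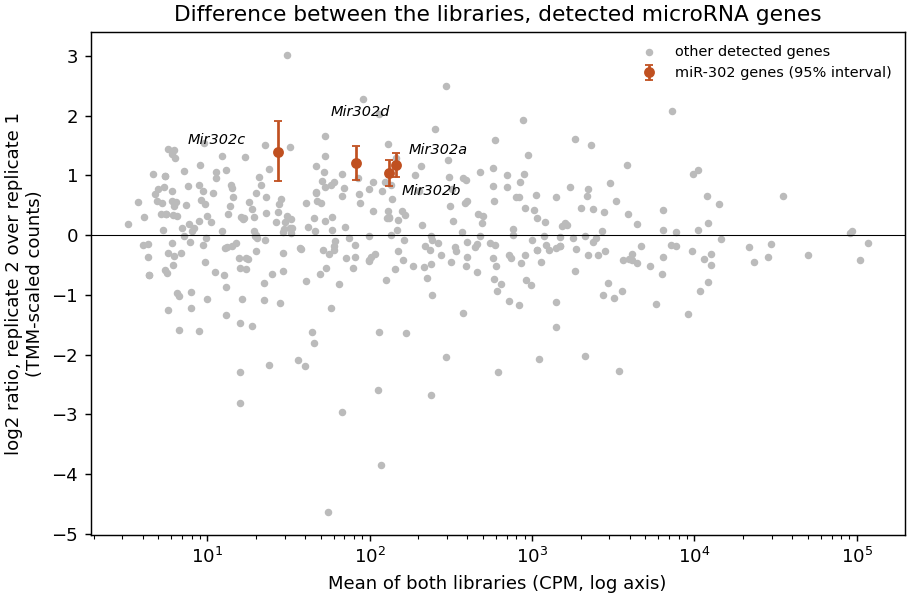
Log2 ratio of replicate 2 over replicate 1 on TMM-scaled counts (vertical axis) against mean CPM (horizontal log axis) for the 389 detected genes, with the miR-302 genes in orange and bars for exact 95% intervals. The miR-302 genes lie between 1.04 and 1.40, among the upper 10.5% of detected genes and within the range of all of them.

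The miR-302 genes lay close together in this ratio. Clusters were taken as genes on 1 strand with neighbours within 10 kb, and 7 had at least 4 detected genes. Over the miR-302 genes the log2 ratio had a range of 0.36 and an SD of 0.15. In the 4 genes detected of the Mir17 to Mir92-1 cluster, which is known for driving proliferation, the range was 1.88 and the SD 0.78. In the 4 of the Mir450b to Mir322 cluster the range was 1.21 and the SD 0.57. The others had ranges of 1.66 to 4.72 with 5 to 34 genes, and larger clusters have more room to spread. This comparison was chosen after the values were seen and carries no test, and the miR-302 genes resemble each other in sequence.

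**Figure D4:**
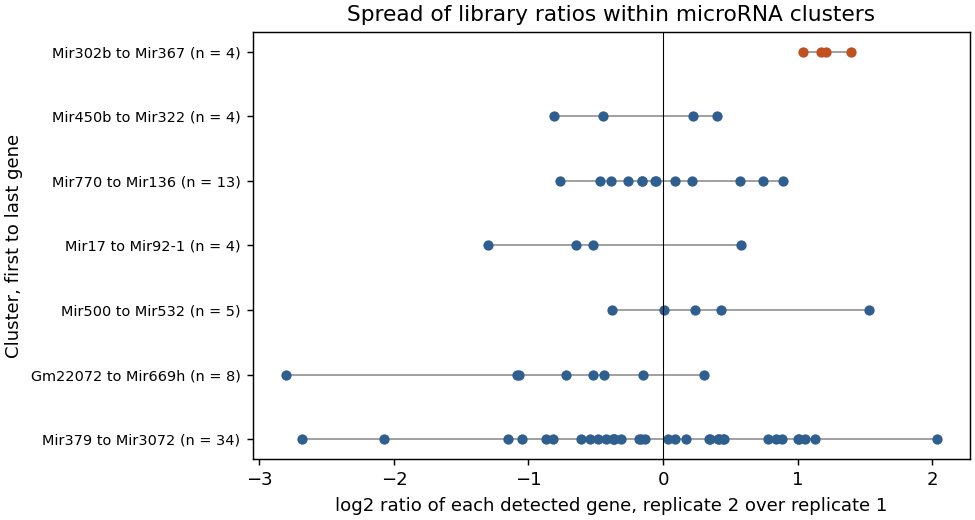
Log2 ratio of replicate 2 over replicate 1 (horizontal axis) for each detected gene of the 7 clusters with at least 4 detected genes (rows, named by first and last gene), with lines spanning each range. The miR-302 points span 0.36 at 1.04 to 1.40, and each other row spans at least 1.21 and lies on both sides of 0.

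Genes without reads were also found in some other clusters. Of the 2202 genes, 1446 (65.7%) had 0 reads in both libraries. Among clusters, the Mir770 to Mir136 group had 1 such gene among 14 and the Mir379 to Mir3072 group 3 among 39. The Gm22072 to Mir669h group had 102 among 119 and the Mir450b to Mir322 group 2 among 7. Of these genes without reads, those that share no 20 bases with a gene elsewhere numbered 1, 3, 2 and 0 in the same order. The Mir17 to Mir92-1 and Mir500 to Mir532 groups had no gene without reads.

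The 3 other genes with AAGUGCU at bases 2 to 8 in the RefSeq table received almost no reads. The miR-290 to miR-295 cluster on chromosome 7 is the other microRNA cluster known to be abundant in mouse embryonic stem cells, and miR-291a-3p, miR-294-3p and miR-295-3p from it share AAGUGCU at bases 2 to 8. Their sequences show the shared seed and the different remainder.
miR-291a-3p: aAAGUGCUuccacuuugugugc
miR-294-3p: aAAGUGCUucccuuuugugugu
miR-295-3p: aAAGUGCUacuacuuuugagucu
Mir294 had 0 reads in replicate 2 and 1 read in replicate 1, and Mir291a and Mir295 had 0 in both. Over all 9 genes of the cluster, Mir290a, Mir290b, Mir291a, Mir291b, Mir292, Mir292b, Mir293, Mir294 and Mir295, that 1 read was the total. The miR-302 and miR-367 genes were at least 512-fold higher than this cluster in replicate 2, taking 3 reads as the limit for the sum. In replicate 1 the ratio was 784 (exact 95% interval 140 to 31005). Of these 9 genes 2, Mir291a and Mir291b, share sequence with a gene elsewhere, so their counts of 0 are uncertain. With the seed taken as bases 2 to 7, miR-350-5p also shares AAGUGC. Its gene Mir350 had 449 reads in replicate 2 and 725 in replicate 1, not counted by arm.

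Other genes that encode a microRNA with the seed of miR-367 received many reads, although Mir367 had none. Reads are per hairpin gene, so how many came from the arm with that seed is not known. RefSeq gives AUUGCAC at bases 2 to 8 of miR-25-3p, miR-32-5p, miR-92a-3p, miR-92b-3p and miR-363-3p. Of these arms, the one from the gene with the most reads is shown beside miR-32-5p, whose hairpin shares 11 bases with that of miR-367.
miR-92b-3p: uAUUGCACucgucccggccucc
miR-32-5p: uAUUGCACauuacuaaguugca
Mir92b, known from neural stem and progenitor cells, had 38174 reads in replicate 2 and 21326 in replicate 1, or 9883 ± 5164 CPM (SD, n = 2). Mir92-1 had 1385 and 1052 reads, Mir25 168 and 115, Mir92-2 95 and 50, Mir32 45 and 67, and Mir363 5 and 9, each in replicate 2 and then in replicate 1. The 6 genes summed to 14137 CPM in replicate 2 and 6610 CPM in replicate 1, with 5 of them detected. Mir92-1 and Mir92-2 encode the same mature strand and are uncertain. By the exact binomial test, which called 33.9% of detected genes higher and 33.7% lower, 4 of the 5 were higher in replicate 2 and none lower. Their median log2 ratio was 0.73, and Mir32 had a log2 ratio of -0.39 (adjusted p = 0.24).

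**Figure D5:**
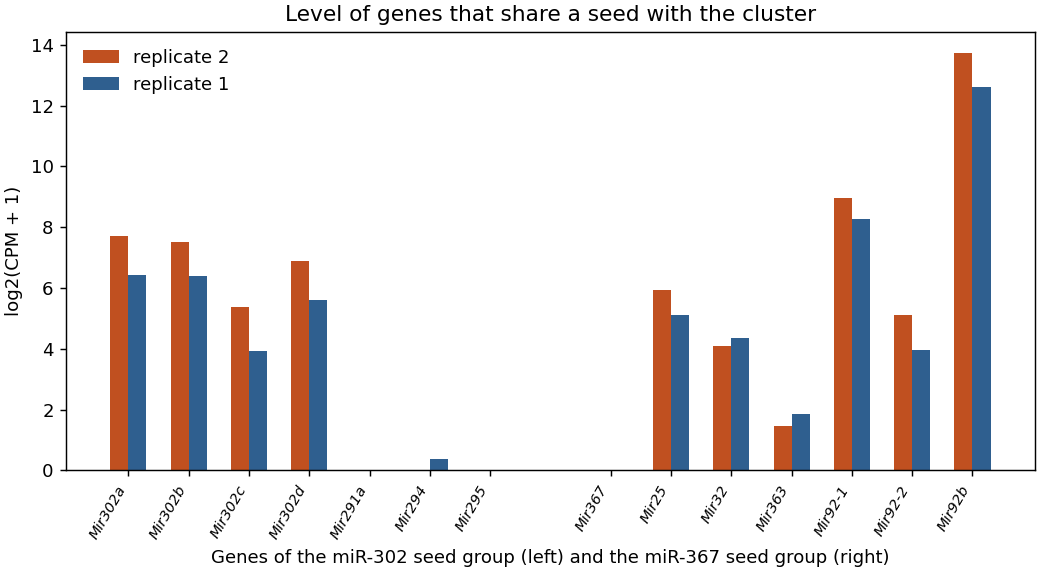
Level of each gene as log2(CPM + 1) (vertical axis) in replicate 2 (orange) and replicate 1 (blue), for the miR-302 genes with the genes that share AAGUGCU (left) and for Mir367 with the genes that share AUUGCAC (right). On the left the genes outside the miR-302 group hold 1 read in all, and on the right Mir367 is at 0 beside Mir92b at the highest level.

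The miR-17 seed family received more reads in sum than the miR-302 genes. Its seed, AAAGUGC, holds all but the last letter of AAGUGCU, the seed of miR-302b-3p and miR-302d-3p, shifted by 1 base. The 5′ arm of Mir93, the gene of the family with the most reads, shows the shift, with bases 2 to 8 in capitals.
miR-93-5p: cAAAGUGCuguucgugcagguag
The 6 genes Mir17, Mir20a, Mir20b, Mir93, Mir106a and Mir106b summed to 2363 CPM in replicate 2 and 2672 CPM in replicate 1, which is 4.34 and 11.7 times the sum of the miR-302 and miR-367 genes. Mir93 led with 1282 ± 90.1 CPM and Mir106a was not detected, with 2 reads in replicate 2 and 8 in replicate 1. Of the 5 detected, 1 was higher in replicate 2 (Mir106b, log2 ratio 1.78) and 3 were lower by the exact binomial test, against 33.9% higher and 33.7% lower of all detected genes, with a median log2 ratio of -0.24.

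Among microRNAs known to oppose pluripotency, the let-7 genes stood far above the cluster in reads. A shorter list exceeded the cluster in sum, by a much smaller margin. The 12 genes of let-7 and miR-98, which repress Lin28 and other genes of the undifferentiated state, were all detected and summed to 333698 CPM in replicate 2 and 356004 CPM in replicate 1. That is 613 times the cluster's reads in replicate 2 and 1554 times in replicate 1. Sequence is shared with a gene elsewhere by 6 of the 12, whose counts are less certain. Of these 12, 4 were higher and 7 lower in replicate 2 by the exact binomial test, against 33.9% and 33.7% of all detected genes. miR-134, miR-296 and miR-470 are known to target Nanog, Oct4 or Sox2 messenger RNA in mouse embryonic stem cells, and miR-145 targets OCT4 and SOX2 in human ones. These 4 genes summed to 821 CPM in replicate 2 and 1795 CPM in replicate 1, or 1.51 and 7.83 times the cluster's reads, and in replicate 2 no single one of them reached the cluster's sum. Mir145a had 620 reads in replicate 2 and 3452 in replicate 1, Mir134 had 1067 and 1847, and Mir296 had 628 and 843 in the same order. All 3 were lower in replicate 2 by the exact binomial test, which called 33.7% of detected genes lower, with a median log2 ratio of -0.61. Mir470 had 0 reads in both. In the neuron-enriched list 9 genes were higher and 3 lower in replicate 2, beside the same shares of all detected genes, with a median of 0.53. Of the 15 genes of that list, 11 share sequence with a gene elsewhere. The non-brain list had 1 higher and 1 lower of 6 detected, with a median of 0.0011. The edgeR exact test called 2 of all 389 detected genes, so at most 2 of the calls in these lists passed with the spread between the libraries as the error. The part of these lists in the ratios of the miR-302 genes was not tested.

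Over the libraries the genes nearest to the mean of the 4 detected members were Mir505, Mir7044, Mir3068, Mir129-1 and Mir7047. Likeness was the Euclidean distance on log2(CPM + 1) over 2 libraries, which is too few for more than a description. The members' mean was 6.86 in replicate 2 and 5.59 in replicate 1 on that scale. Mir505, on chromosome X, was nearest at a distance of 0.21, with 322 reads in replicate 2 and 187 in replicate 1. The others lay at distances of 0.34 to 0.45. In mean CPM, Mir302a stood between Mir873a (148 ± 13.4) and Mir7-2 (145 ± 92.0), and Mir302b between Mir27a (132 ± 24.3) and Mir351 (130 ± 31.6). Mir302d stood between Mir505 (84.4 ± 42.1) and Mir491 (81.7 ± 2.69), and Mir302c between Mir451a (27.5 ± 8.28) and Mir3057 (27.4 ± 6.45). These neighbours were chosen by rank in mean CPM, so their closeness to the member in the mean follows from the choice.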

How the data were processed

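For each library the authors deposited unnormalized counts of reads per gene, in columns that ignore strand, take the gene's strand or take the opposite strand. The gene-strand counts were used. Per the deposited text notes, the assembly was mm10 and the annotation GENCODE M21; aligner, counter and trimming: not given in the sources used here. The 4 rows that name no gene held 67.0% of reads in replicate 2 and 64.8% in replicate 1 and were left out. All 2202 gene IDs matched GENCODE M21.

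CPM used assigned reads. Detection required 10 reads in both libraries. For each detected gene a two-sided exact binomial test set its counts in the libraries against their TMM-scaled sizes (edgeR 4.0.16, R 4.3.3, SciPy 1.17.1) with Benjamini-Hochberg adjustment and a threshold of 0.05. With a single group, no contrast for a quasi-likelihood test existed. On simulated Poisson counts for this comparison (388 genes tested), the test called 187 of 187 genes changed 4-fold and 2 of 201 unchanged genes. The simulation held counting error only, as the test assumes. It does not give the rate of false calls between these libraries. Shared sequence was a run of 20 bases in hairpins at different places. Mature sequences are RefSeq's, matched by symbol: 9 sequences of the 5 members, without miR-302a-3p. DESeq2 1.42.0 size factors, library totals, other minimum counts, other seed lengths and each library left out were alternatives.

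The members and lists (miR-290 to miR-295, miR-17 and miR-92 seed families, let-7 and miR-98, pluripotency-opposing, neuron-enriched and non-brain) were chosen with earlier results of these data known. Named genes were the members, the lists, genes that share a seed or 20 bases with a member, the 5 nearest in level and those next in rank.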

Additional observations from a re-analysis of the deposited data

How the results depend on the processing

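Of the alternatives, 20 kept the main results on the same side or within their error, as did all 19 for single genes, and 2 moved. Part of this agreement was fixed in advance. With 2 libraries, either alone always lies within the SD of their mean. A minimum count leaves the ratio of a gene that passes it unchanged, and the members' counts were the same without regard to strand. With the edgeR exact test in place of the binomial test, 0 of 4 members were called. The calls over all detected genes numbered 2 in place of 263, with 23 genes at an unadjusted p under 0.05. That test takes its error from the difference it tests, so few genes can pass. With all reads in place of assigned reads as the library size, the cluster's level was 130 CPM in place of 387 CPM. Leaving out each library in turn gave a level of 229 to 544 CPM, so replicate 1 alone gives the lower and replicate 2 alone the higher value, and a Mir302a share of 37.2% to 37.9%. The median log2 ratio of the members lay between 1.10 (DESeq2 size factors) and 1.29 (library totals), and that of all detected genes between -0.039 and 0.15. A minimum of 100 reads left 3 members, without Mir302c. No paired analysis was possible because the design holds a single group. At this depth Mir367 was not detectable, and a level under about 1 CPM cannot be told from 0.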
